A study of Mus musculus with 4 samples.

Results

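The BMP signalling and ID genes described here are 10 genes chosen by name: the ligands *Bmp4* and *Bmp7*, the type I receptors *Bmpr1a* and *Bmpr1b*, the inhibitory SMADs *Smad6* and *Smad7*, and the target genes *Id1*, *Id2*, *Id3* and *Id4*. Each of the 10 had 1 entry of its own among the 21091 entries in the files, and all 10 had a mean over the libraries of 1 FPKM or more, the minimum for the 12449 genes tested. FPKM counts the fragments of a transcript per kilobase of its length scaled to the depth of the library, so levels of different genes can be set side by side within a library. RNA-seq was carried out on mouse (C57BL/6) neural progenitors taken from brains at embryonic day 11 (E11) or 14 (E14) and grown for 3 days as neurospheres in serum-free suspension culture with EGF and FGF. There was 1 library for each of 4 groups, namely control (CTL) and *Stat3* cKO progenitors of either stage. Where 4 values of a gene are listed together, the pair for E11 comes before the pair for E14, with CTL first in each pair. In *Stat3* cKO, floxed *Stat3* exons that encode the SH2 domain are removed by Cre under a rat Nestin promoter and enhancer. The labels and the description of the RNA samples call the controls wild type, whereas the description of the mice gives Nestin-Cre embryos with 1 floxed *Stat3* allele as controls, so whether the control libraries carried Cre cannot be told from these sources. How many embryos went into a library is not given in the sources used here. With a single library per group there is no spread between replicates, no test and no p-value, and every ratio below compares 2 libraries.

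Bone morphogenetic proteins (BMPs) are secreted ligands of the TGF-beta family. They bind type II receptors together with type I receptors such as BMPR1A and BMPR1B, which phosphorylate SMAD1, SMAD5 and SMAD9. These SMADs enter the nucleus with SMAD4 and switch on targets that include the ID genes and the feedback inhibitors *Smad6* and *Smad7*. ID proteins have a helix-loop-helix domain without a DNA-binding region, so they tie up E proteins and keep proneural factors from acting. In the embryonic brain, BMPs come from the dorsal midline and the meninges, pattern the dorsal telencephalon and, at later stages, act with STAT3 in astrocyte formation.

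*Stat3* itself had 7.41 FPKM (CTL) and 6.74 (*Stat3* cKO) at E11, and 27.62 and 9.555 at E14. The library labelled E11 *Stat3* cKO thus had nearly the *Stat3* level of its control, and the genotype comparison at E11 is between libraries with like *Stat3* mRNA. The 4 Y-linked genes examined summed to 93.7 FPKM in E14 *Stat3* cKO and 0.262 in E14 CTL and were at 0 in both E11 libraries. The sex of the embryos and genotype therefore cannot be told apart at E14, nor can sex and stage in *Stat3* cKO. This limit carries over to every difference of ratios that uses the E14 *Stat3* cKO library. The 8 neural progenitor markers were all present, with the lowest value at 4.25 FPKM for *Msi1* in E14 CTL, and they summed to 1437 and 1634 FPKM at E11 and 7271 and 7920 at E14 (CTL, then *Stat3* cKO). Most of the sum at E14 was *Fabp7* (5245 and 5929 FPKM). At E14, 3 of the 8 markers were at least 2-fold higher than at E11 in CTL and 4 in *Stat3* cKO, beside 14.6% and 10.1% of all genes tested. In both genotypes 2 were at least 2-fold lower, *Pax6* (44.16 and 48.61 at E11, 14.59 and 19 at E14) and *Msi1*, beside 12.4% and 11.7%. The E11 libraries also held markers of mesenchyme and meninges. All 9 of these markers were at least 2-fold lower at E14 than at E11 in both genotypes, where 12.4% of all genes tested were in CTL and 11.7% in *Stat3* cKO. None was at 0 in any library, and their sum was 1417 FPKM (CTL) and 1279 (*Stat3* cKO) at E11, and 16.9 and 10.9 at E14. In bulk RNA, fewer cells of a type and less RNA per cell cannot be told apart, and this holds for every stage ratio below.

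Between genotypes, only the ligands were past 2-fold, and only at E14. At E14, 1 of the 10 genes, *Bmp4*, was at least 2-fold higher in *Stat3* cKO than in CTL, where 1.85% of all genes tested were. Another, *Bmp7*, was at least 2-fold lower, where 1.69% of all genes were. At E11 none of the 10 passed 2-fold in either direction, where 0.209% of all genes passed it upward and 1.12% downward. Over the 10 genes, the genotype log2 ratio (*Stat3* cKO to CTL) had a median of 0.12 at both stages, beside -0.08 at E14 and 0.06 at E11 over all genes tested.

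Between stages, *Bmp4*, *Smad6*, *Id1* and *Id3* were lower at E14 and *Bmpr1b* was higher, past 2-fold in both genotypes. In CTL, 5 of the 10 genes were at least 2-fold lower at E14 than at E11 (12.4% of all genes tested) and 1 was at least 2-fold higher (14.6%). In *Stat3* cKO, 5 were also at least 2-fold lower (11.7%) and 1 higher (10.1%). The fifth of the lower genes was *Smad7* in CTL and *Bmp7* in *Stat3* cKO. Over the 10 genes, the log2 ratio of E14 to E11 had a median of -0.93 in CTL and -1.11 in *Stat3* cKO, beside 0.21 and 0.06 over all genes. These 4 comparisons share libraries and are not independent of each other.

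**Figure D1:**
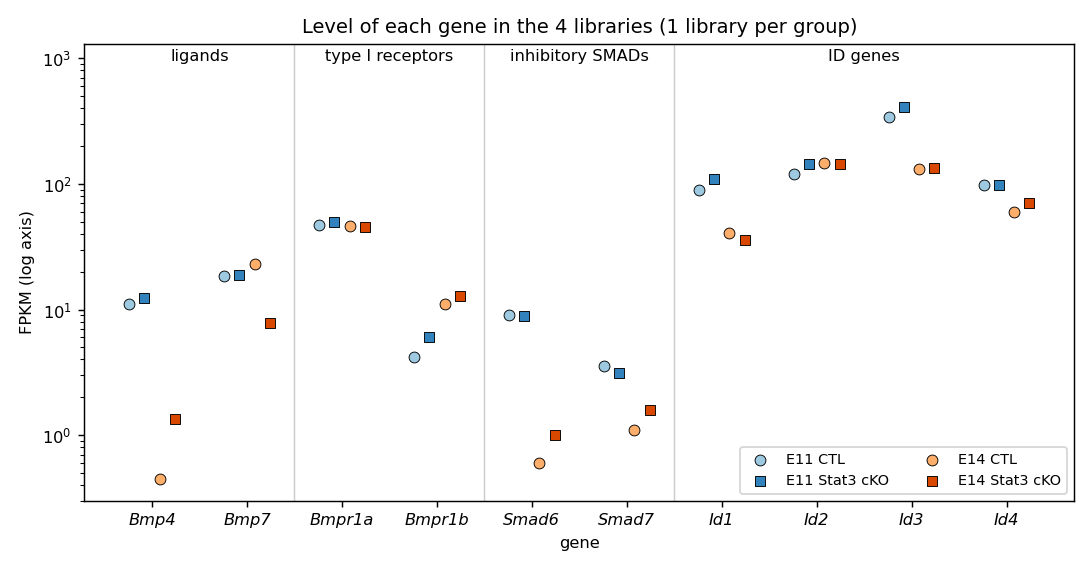
Level of each of the 10 genes in FPKM on a log axis, in order of role, with circles for CTL, squares for *Stat3* cKO, blue for E11 and orange for E14; each point is 1 library. The E14 *Stat3* cKO point of *Bmp7* (7.855 FPKM) lies apart from the other 3 libraries (18.39 to 22.85), and both E14 points of *Bmp4*, *Smad6*, *Smad7*, *Id1*, *Id3* and *Id4* lie under both E11 points. The share of all genes separated by stage in this way was not counted.

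*Bmp4*, a ligand of the dorsal midline and of mesenchyme, is listed on chromosome 14 from 46999198 to 47010274. It had 11.0 FPKM (CTL) and 12.3 (*Stat3* cKO) at E11, and 0.448 and 1.33 at E14. Both E14 libraries were thus far under both E11 libraries. The E14 level was 24.6-fold lower than at E11 in CTL and 9.23-fold lower in *Stat3* cKO. A pseudocount of 1 FPKM brought these log2 ratios from -4.62 to -3.05 and from -3.21 to -2.51. Among genes with a mean of 2 to 10 FPKM over the libraries compared, 17.8% in CTL and 17% in *Stat3* cKO were at least 2-fold lower at E14. Between the E14 libraries, *Bmp4* was 2.98-fold higher in *Stat3* cKO, on a low level. Only 0.491% of all genes with a ratio stood as high, but among genes with a mean under 2 FPKM over the E14 libraries, 5.58% were at least 2-fold higher. Adding a pseudocount of 1 FPKM brought the log2 ratio from 1.58 to 0.69, under 2-fold. The markers of mesenchyme and meninges had median log2 ratios of E14 to E11 of -6.46 (CTL) and -7.09 (*Stat3* cKO). The markers of roof plate, hem and choroid plexus were lower as well, with medians of -3.16 and -2.87 over the 7 tested. In both genotypes 4 of the 7 (*Otx2*, *Lmx1a*, *Wnt8b* and *Rspo2*) were at least 2-fold lower at E14 and 1, *Ttr*, was higher, beside 12.4% and 14.6% of all genes in CTL and 11.7% and 10.1% in *Stat3* cKO. Between the E14 libraries, 3 of the 9 mesenchyme and meninges markers passed 2-fold downward in *Stat3* cKO, and 1, *Pdgfrb*, upward, from 0.625 to 1.58 FPKM, beside 1.69% and 1.85% of all genes. The part of either kind of cell in the *Bmp4* values was not tested.

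*Bmp7*, a ligand made in the meninges, the hem and the choroid plexus as well as in neural cells, is listed on chromosome 2 from 172695188 to 172765794. It had 18.4 FPKM (CTL) and 18.7 (*Stat3* cKO) at E11, and 22.85 and 7.855 at E14. The E14 *Stat3* cKO library was the low value of the 4, and the other 3 lay close together. At E14 the level in *Stat3* cKO was 2.91-fold lower than in CTL, and 0.467% of all genes had a ratio as low or lower. Of the genes with a mean of 10 to 50 FPKM over the E14 libraries, 1.09% were at least 2-fold lower. At E11 the ratio was 1.02, and the difference between the genotype log2 ratios of the stages was -1.57, a value as low or lower in 0.668% of 12419 genes. The E14 genotype log2 ratio of *Bmp7*, -1.54, became -1.43 with a pseudocount of 1 FPKM and -1.39 with upper-quartile scaling. Centring on the all-gene median gave -1.46. These 3 values stayed past 2-fold, and the ratio fell short of 3-fold. The other alternatives say nothing about this call. Neither change of the minimum nor the threshold of 1.5-fold could alter it, and a pseudocount of 0.1 FPKM hardly moves a ratio at this level (-1.53). Markers of roof plate, hem and choroid plexus summed to 136 FPKM (CTL) and 94.3 (*Stat3* cKO) at E14, of which *Ttr* alone made up 117.9 and 82.23, and none of the 9 was at 0. The 7 tested had a median log2 ratio of *Stat3* cKO over CTL of -0.52. *Rspo3* (12.33 and 5.35 FPKM) was the 1 at least 2-fold lower, where 1.69% of all genes were. Short of 2-fold, *Ttr*, *Wnt8b* (0.1011 and 0.05129) and *Folr1* (1.573 and 0.8473) had the lower value in *Stat3* cKO, and *Otx2* (3.563 and 4.777), *Lmx1a* (0.1982 and 0.288) and *Rspo2* (0.2759 and 0.3743) the higher. Their part in the *Bmp7* difference was not tested.

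Among the BMP ligands the makeup differed by stage. In a list of 14 ligands that adds *Bmp2*, *Bmp3*, *Bmp5*, *Bmp6*, *Bmp8a*, *Bmp8b*, *Bmp10*, *Bmp15*, *Gdf2*, *Gdf5*, *Gdf6* and *Gdf7* to the members, the summed level was 61.1 FPKM (CTL) and 60.7 (*Stat3* cKO) at E11, and 28.1 and 13.3 at E14. *Bmp7* made up 30.1% and 30.8% of this sum at E11, but 81.3% (CTL) and 58.9% (*Stat3* cKO) at E14. *Bmp4* made up 18% and 20.3% at E11. Of the 12 other ligands, 5 reached a mean of 1 FPKM. By the mean over the libraries the highest was *Bmp6*, with 8.22 and 9.63 FPKM at E11 and 0.529 and 0.411 at E14, and at E14 all of the 5 but *Bmp3* were at least 2-fold lower than at E11 in CTL (12.4% of all genes) and all 5 in *Stat3* cKO (11.7%). Those other than *Bmp3* were under 1 FPKM in both E14 libraries and reached the mean of 1 FPKM only through E11, so the minimum favours lower values at E14. None of the 5 reached a mean of 5 FPKM. *Bmp3* was at 4.52 and 5.54 FPKM at E11 and 2.83 and 1.99 at E14, where it was the highest of the 12. *Gdf7*, a roof plate ligand, was the only gene of the wider pathway at least 2-fold lower in the library labelled E11 *Stat3* cKO, with 4.01 FPKM in CTL and 1.11 there.

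**Figure D2:**
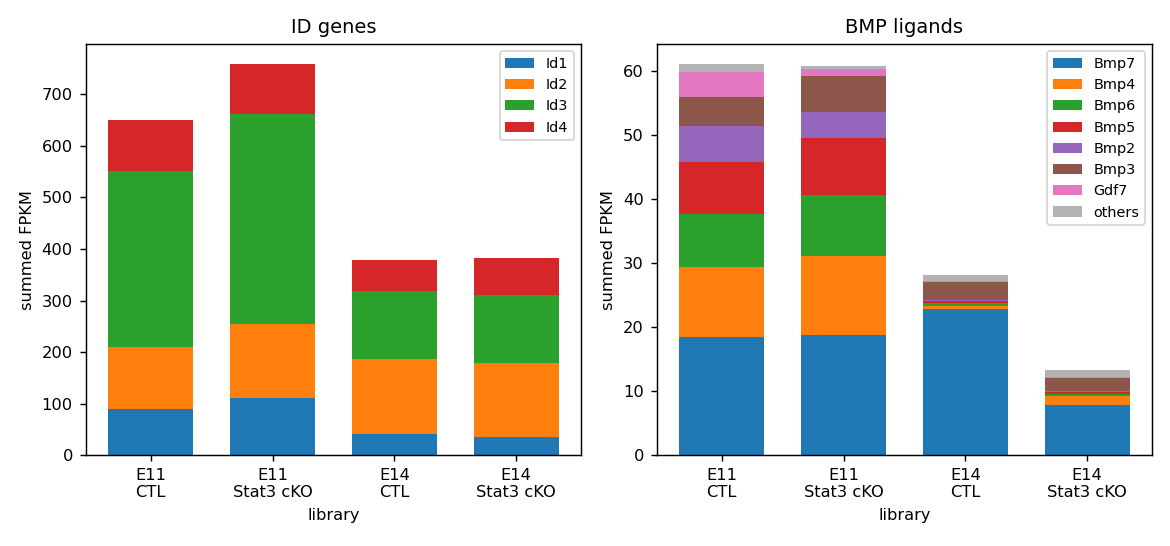
Summed FPKM of the 4 ID genes (left) and of 14 BMP ligands (right) in each library, stacked by gene. At E14 *Id2* and *Id3* take similar parts of the ID sum, whereas *Id3* makes up 52.6% and 53.6% of it at E11, and *Bmp7* is most of the ligand sum in both E14 libraries.

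The type I receptors did not share one course. *Bmpr1a*, the broadly expressed type I receptor of neural progenitors, is listed on chromosome 14 from 35224253 to 35315732. It had 46.7 FPKM (CTL) and 49.7 (*Stat3* cKO) at E11, and 46.1 and 45.3 at E14. The 4 values were within 10% of each other. *Bmpr1b*, the type I receptor linked to later differentiation of neural cells, is listed on chromosome 3 from 141500099 to 141645215. It had 4.15 FPKM (CTL) and 6.04 (*Stat3* cKO) at E11, and 11.1 and 12.9 at E14. Both E14 libraries were above both E11 libraries, by 2.67-fold in CTL and 2.14-fold in *Stat3* cKO. The latter fell short of 2-fold with a pseudocount of 1 FPKM (log2 ratio 0.98) or upper-quartile scaling (0.95). *Bmpr1b* was the higher in *Stat3* cKO at both stages, 1.45-fold at E11, where 2.82% of genes had a ratio as high, and 1.17-fold at E14. *Bmpr1a* stayed the higher of the 2 receptors in every library, but its lead over *Bmpr1b* was 11.3-fold in E11 CTL, 8.23-fold in E11 *Stat3* cKO, 4.17-fold in E14 CTL and 3.51-fold in E14 *Stat3* cKO.

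The inhibitory SMADs, which block receptor signalling and are themselves switched on by it, were lower at E14. *Smad6*, the more BMP-selective inhibitor, is listed on chromosome 9 from 63800882 to 63869866. It had 9.03 FPKM (CTL) and 8.85 (*Stat3* cKO) at E11, and 0.605 and 0.998 at E14. *Smad7*, which acts on both the BMP and TGF-beta branches, is listed on chromosome 18 from 75527018 to 75555588 and had 3.56, 3.12, 1.098 and 1.597 FPKM in that order. Neither gene's E14 values overlapped its E11 values, and the share of all genes of which this holds was not counted. *Smad6* was 14.9-fold lower at E14 in CTL and 8.86-fold lower in *Stat3* cKO, with log2 ratios of -3.90 and -3.15 that a pseudocount of 1 FPKM brought to -2.64 and -2.30. *Smad7* was 3.24-fold lower in CTL and 1.96-fold lower in *Stat3* cKO, the latter just short of 2-fold (log2 ratio -0.97, and -1.12 with upper-quartile scaling). Among genes with a mean of 2 to 10 FPKM over the libraries compared, as for both genes, 17.8% in CTL and 17% in *Stat3* cKO were at least 2-fold lower. At E14 both were higher in *Stat3* cKO, *Smad6* by 1.65-fold and *Smad7* by 1.45-fold, neither past 2-fold, while at E11 their log2 ratios were -0.03 and -0.19. Of all genes, 3.97% had an E14 genotype ratio as high as that of *Smad6* and 6.6% as high as that of *Smad7*. The mesenchyme and meninges markers move in the same direction between stages, and their part in the *Smad6* and *Smad7* values was not tested.

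**Figure D3:**
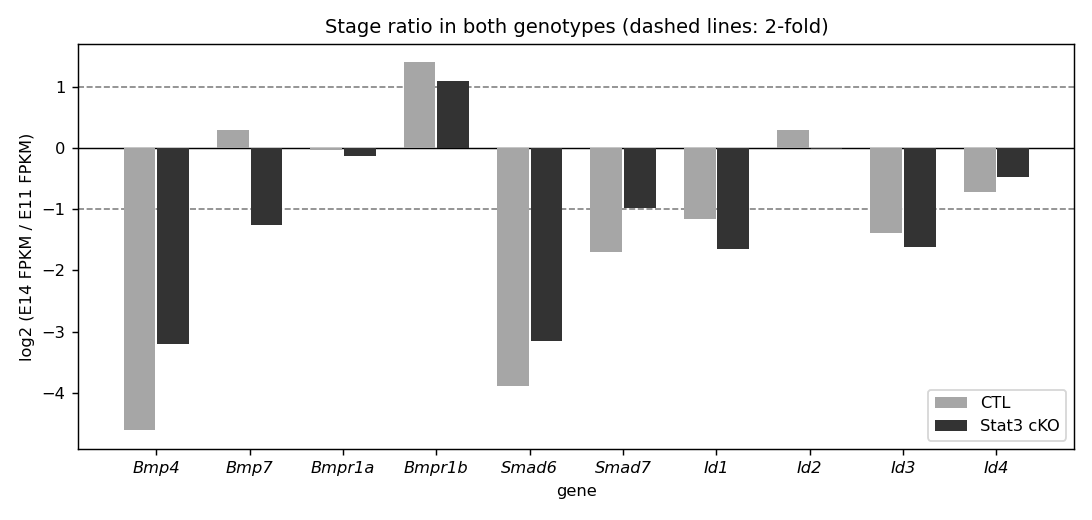
Log2 ratio of the E14 to the E11 FPKM for each gene in CTL (light) and *Stat3* cKO (dark), with dashed lines at 2-fold. *Bmp4* and *Smad6* have the lowest bars in both genotypes (-4.62 and -3.90 in CTL), *Bmpr1b* alone is past 2-fold upward, and the bars of the genotypes are farthest apart for *Bmp7* (0.31 in CTL and -1.25 in *Stat3* cKO) and *Bmp4* (-4.62 and -3.21).

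The ID genes were the most abundant of the members in every library except that *Bmpr1a* was above *Id1* at E14. *Id3*, an inhibitor of E proteins and a direct BMP target, is listed on chromosome 4 from 135699736 to 135701307. It had 341 FPKM (CTL) and 407 (*Stat3* cKO) at E11, and 131.5 and 132.9 at E14. *Id1*, its close relative and also a direct target, is listed on chromosome 2 from 152562009 to 152563146 and had 90.2, 110, 40.5 and 35.4 FPKM in the same order. For both genes the E14 libraries were under the E11 libraries, and the genotypes of a stage were within 1.22-fold of each other. *Id3* was 2.60-fold lower at E14 in CTL and 3.07-fold lower in *Stat3* cKO, and *Id1* 2.22-fold and 3.12-fold lower. In CTL, 8.87% of genes had a stage ratio as low as that of *Id3* and 10.8% as low as that of *Id1*. Among genes with a mean of 50 FPKM or more over the libraries compared, 3.73% in CTL and 3.58% in *Stat3* cKO were at least 2-fold lower. The part of the mesenchyme and meninges markers, which were also lower at E14, was not tested.

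*Id4*, which acts in the timing of neural differentiation, is listed on chromosome 13 from 48356795 to 48359405. It had 98.3 FPKM (CTL) and 97.7 (*Stat3* cKO) at E11, and 60.15 and 70.43 at E14. Its E14 values were also under its E11 values, by 1.63-fold in CTL and 1.39-fold in *Stat3* cKO, short of 2-fold, although with upper-quartile scaling the log2 ratio in CTL was -1.08. *Id2*, expressed in progenitors and in neurons, is listed on chromosome 12 from 25778663 to 25780957 and had 119.5, 143.8, 146.7 and 143.2 FPKM. The *Id2* values of the stages overlapped, and E14 stood at 1.23 times E11 for CTL and 0.996 times for *Stat3* cKO. Between genotypes, the ratios of the 4 ID genes lay between 1.14-fold lower and 1.22-fold higher. At E11, *Id1*, *Id2* and *Id3* were higher in the library labelled *Stat3* cKO by 1.22-fold, 1.20-fold and 1.19-fold, and *Id4* was at 1.01-fold lower. At E14 their log2 ratios were -0.19 for *Id1*, -0.03 for *Id2*, 0.02 for *Id3* and 0.23 for *Id4*. The median log2 ratio of the ID genes was 0.26 at E11 and -0.01 at E14.

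Summed over the 4 ID genes, the level was 649 FPKM (CTL) and 759 (*Stat3* cKO) at E11, and 379 and 382 at E14. *Id3* was the highest ID gene at E11, at 2.86 times *Id2* in CTL and 2.83 times in *Stat3* cKO. At E14 *Id2* was the highest, and *Id3* stood at 0.896 times *Id2* in CTL and 0.928 times in *Stat3* cKO. This change of the leading gene was seen in both genotypes. The E proteins that ID proteins bind, encoded by *Tcf3*, *Tcf4* and *Tcf12*, stayed within 2-fold in every comparison. Most genes did so as well, since 0.209% to 1.85% passed 2-fold in 1 direction between genotypes and 10.1% to 14.6% between stages. *Tcf12* had 114, 119, 85.4 and 90.3 FPKM, *Tcf3* 66.6, 72.1, 62.0 and 60.4, and *Tcf4* 43.0, 48.8, 50.8 and 46.3. The sum of the ID genes was thus 2.90 and 3.17 times that of the E proteins at E11 and 1.91 and 1.94 times at E14.

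**Figure D4:**
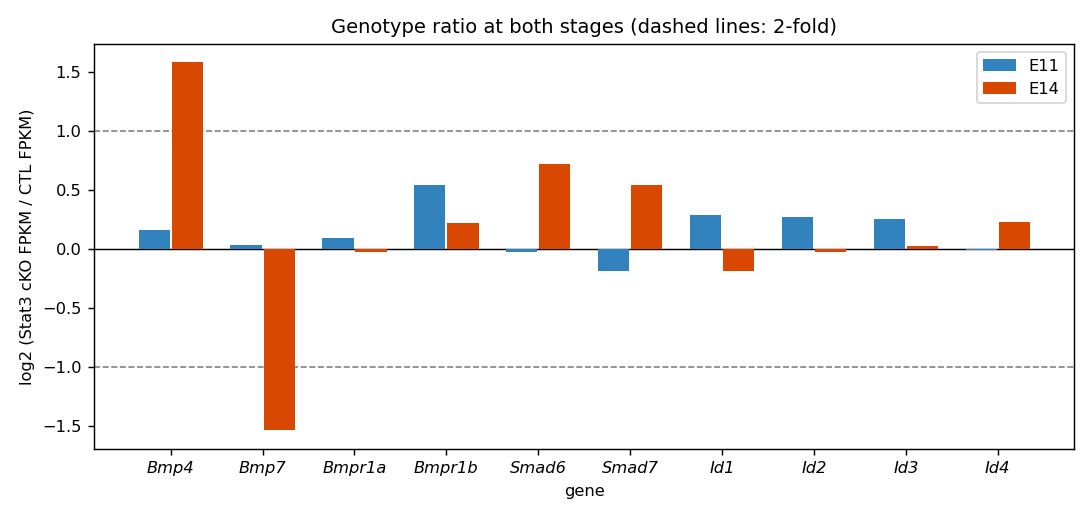
Log2 ratio of the *Stat3* cKO to the CTL FPKM for each gene at E11 (blue) and E14 (orange), with dashed lines at 2-fold. *Bmp4* (1.58) and *Bmp7* (-1.54) at E14 are the only bars past the lines, in opposite directions, and the ID genes lie between -0.19 and 0.29 at both stages.

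Sequence before the start site is shown for *Id2*, *Id3* and *Id4*, to set beside an ID gene that was lower at E14 in both genotypes (*Id3*) those that were not past 2-fold. The windows are the 250 bases before the start site from RefSeq on build GRCm38.p6, 5′ to 3′ on the gene's strand, at chr12:25096093-25096342 (minus strand) for *Id2*, chr4:136143572-136143821 (plus strand) for *Id3* and chr13:48260866-48261115 (plus strand) for *Id4*. Capitals mark GGCGCC, the GC-rich part of BMP response elements, and CAGAC, a SMAD box, on either strand, so GTCTG is CAGAC on the other strand.
Id2: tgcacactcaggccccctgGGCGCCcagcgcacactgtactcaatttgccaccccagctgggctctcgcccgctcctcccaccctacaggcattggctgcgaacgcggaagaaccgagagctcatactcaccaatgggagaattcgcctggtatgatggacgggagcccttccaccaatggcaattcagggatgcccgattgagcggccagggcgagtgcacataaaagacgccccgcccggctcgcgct
Id3: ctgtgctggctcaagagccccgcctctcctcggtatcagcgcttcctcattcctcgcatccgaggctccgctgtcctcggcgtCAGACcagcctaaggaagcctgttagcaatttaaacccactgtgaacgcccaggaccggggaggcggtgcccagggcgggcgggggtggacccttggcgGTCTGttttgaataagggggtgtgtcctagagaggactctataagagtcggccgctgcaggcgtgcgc
Id4: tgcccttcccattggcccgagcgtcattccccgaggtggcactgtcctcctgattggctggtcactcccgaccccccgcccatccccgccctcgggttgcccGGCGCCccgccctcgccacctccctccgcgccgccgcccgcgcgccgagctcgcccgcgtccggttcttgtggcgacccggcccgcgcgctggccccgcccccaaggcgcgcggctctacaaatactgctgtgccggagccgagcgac
The *Id3* window held CAGAC at 2 places, starting 167 and 68 bases before the start site, and no GGCGCC. The *Id2* and *Id4* windows each held GGCGCC once, starting 231 and 148 bases before the start site, and no CAGAC. Of all 32851 promoter windows of this length, 42.2% held CAGAC and 9.59% GGCGCC. The letters TTCNNNGAA, a STAT motif, were in none of the 9 windows of the 7 members with one, and in 7.02% of all. Among the other members, *Bmpr1a* had GGCGCC once, *Bmpr1b* CAGAC in 2 of 3 windows, and *Bmp4* and *Smad6* neither. *Id1* and *Bmp7* had no entry, and *Smad7* was not used here. None of these motifs overlapped another here, and the matches describe letters, not binding.

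The wider BMP pathway was followed in 6 lists of 59 genes, all in the files, of which 39 reached a mean of 1 FPKM. At E14, 1 of the 39 was at least 2-fold higher in *Stat3* cKO and none at least 2-fold lower, beside 1.85% and 1.69% of all genes. That gene was *Rgma*, a BMP co-receptor, with 16.2 FPKM (CTL) and 16.8 (*Stat3* cKO) at E11, and 7.385 and 15.45 at E14. The low library for *Rgma* was E14 CTL. At E11, *Gdf7* was the 1 gene of the 39 at least 2-fold lower and none was higher, beside 1.12% and 0.209% of all genes. Between stages, 18 of the 39 were at least 2-fold lower at E14 in CTL and 16 in *Stat3* cKO, and 3 were higher in each, beside 12.4%, 11.7%, 14.6% and 10.1% of all genes. With a minimum mean of 5 FPKM, 24 of these genes were left. Of them 7 were lower and 2 higher at E14 in CTL, where 7.46% and 15.5% of all genes at that minimum were, and 4 were lower and 3 higher in *Stat3* cKO, beside 7.65% and 9.03%. The mesenchyme and meninges markers were lower at E14 as well, and their part in these counts was not tested.

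By role, 3 of the 4 SMADs that carry the signal, *Smad1*, *Smad5* and *Smad4*, were tested, and none passed 2-fold in any comparison. Of all genes, 0.209% to 1.85% passed it in 1 direction between genotypes and 10.1% to 14.6% between stages. *Smad9* averaged under 1 FPKM and was not tested, with 1.272, 0.9873, 0.2388 and 0.2392 FPKM, so its E14 values were under its E11 values. *Smad4*, the shared partner, had 43.3, 45.7, 40.0 and 35.4 FPKM, and *Smad1* 23.8, 25.1, 24.4 and 25.3. Of the 12 extracellular antagonists tested, 6 were at least 2-fold lower and 3 higher at E14 in CTL, and 5 and 2 in *Stat3* cKO, where 12.4% and 14.6% of all genes were in CTL and 11.7% and 10.1% in *Stat3* cKO. The highest of them, *Fstl1*, a follistatin-like secreted protein of mesenchyme, had 266, 215, 29.6 and 26.8 FPKM. *Nog*, which encodes the BMP antagonist noggin, had 9.38, 10.4, 2.97 and 5.53 FPKM. Of the 6 receptors and co-receptors tested, 3 were lower at E14 in CTL and 2 in *Stat3* cKO, beside the same shares. *Rgmb*, a co-receptor, had the highest mean over the libraries, at 35.97, 32.24, 12.86 and 11.72 FPKM, although at E14 *Acvr2a*, a type II receptor, was above it at 19.07 and 16.52. Of the 8 intracellular modulators, 1 was lower in CTL and none in *Stat3* cKO (12.4% and 11.7% of all genes), and *Ppm1a*, a phosphatase that acts on SMADs, was the highest at 46.8, 41.5, 70.1 and 54.1 FPKM.

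Of the 8 other target genes, 5 were tested, and 4 of them were at least 2-fold lower at E14 than at E11 in both genotypes, beside 12.4% (CTL) and 11.7% (*Stat3* cKO) of all genes. All 4 were under 1 FPKM in both E14 libraries and reached the mean of 1 FPKM only through E11. The minimum thus favours genes that are lower at E14, and this count says little about the targets. The highest, *Hey1*, a target that is shared with the Notch pathway, had 19.7 and 18.3 FPKM at E11 and 32.3 and 44.4 at E14 and was past 2-fold upward between stages in *Stat3* cKO. In the TGF-beta branch, 4 of 9 genes tested were at least 2-fold lower at E14 in CTL and 6 in *Stat3* cKO, beside the same shares. The 1 gene that was higher in each (14.6% and 10.1% of all genes) was *Inhbb*, an activin subunit, with 0.9627, 1.196, 13.27 and 21.8 FPKM. *Tgfbr2*, the type II receptor for TGF-beta, was the 1 gene of the 9 past 2-fold between genotypes, at E14, where 1.69% of all genes were at least 2-fold lower and 1.85% higher. It had 4.34 and 4.06 FPKM at E11, and 2.80 (CTL) and 0.977 (*Stat3* cKO) at E14. *Tgfbr1*, its type I partner, had 61.8, 69.6, 31.5 and 28.3 FPKM. None of the 8 bHLH partners of ID proteins passed 2-fold between genotypes at either stage, where 0.209% to 1.85% of all genes did so in 1 direction. *Olig1* had the highest mean of them over the libraries, at 345 and 311 FPKM at E14, but was the lowest of the 8 at E11 (1.64 and 2.85).

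**Figure D5:**
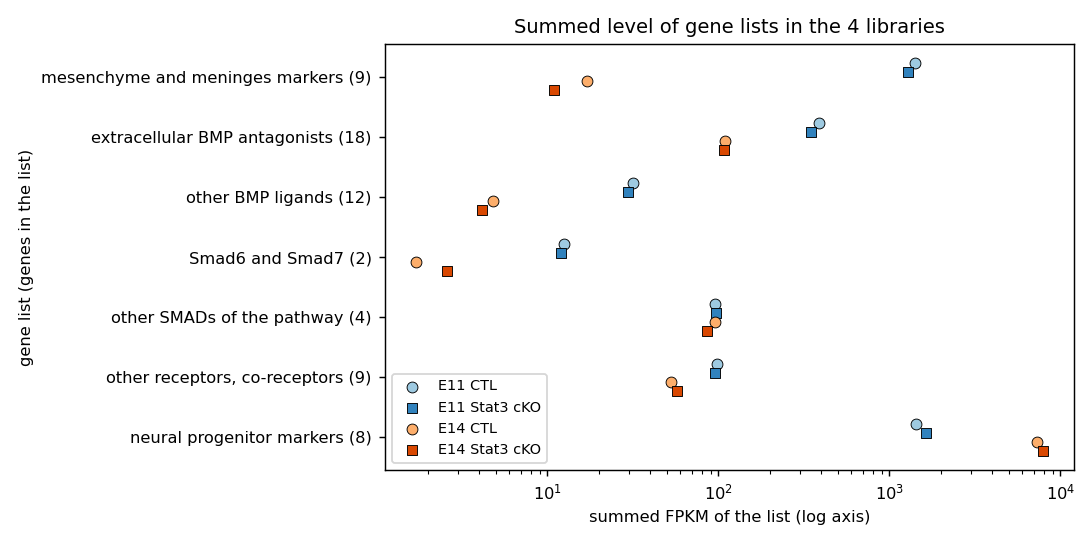
Summed FPKM of gene lists on a log axis in the 4 libraries, with the number of genes in each list in brackets. The mesenchyme and meninges markers stand at 1417 and 1279 FPKM at E11 and at 16.9 and 10.9 at E14, other BMP ligands at 31.7 and 29.7 at E11 and 4.82 and 4.16 at E14, and the other SMADs of the pathway lie between 85.5 and 96.5.

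The likeness of 2 genes was measured as the root mean square difference of log2 FPKM over the 4 libraries, after each gene was centred on its own mean. Among the members, *Id1* and *Id3* were closest (0.09), followed by *Bmpr1a* and *Id2* (0.13). *Bmp4* was closest to *Smad6* (0.36), and *Smad7* to *Id3* (0.26). Of 9191 genes that averaged 5 FPKM or more and had no value of 0, *Bmp4* was most like *Pdgfrb* (0.10), *Nfatc4* (0.16) and *Cdc42ep5* (0.19). *Bmp7* was most like *Fkbp11* (0.13), *Adam12* (0.15) and *Hells* (0.16), and *Fkbp11* had 9.07, 9.01, 8.995 and 3.54 FPKM. *Id3* was most like *Tfdp2* (0.03), *Hif1an* (0.04) and *Rest* (0.05), and *Id1* most like *Ankrd44* (0.04), *Pgm2l1* (0.06) and *Zbed6* (0.07). These distances rest on 4 libraries.

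In the GRCm38 annotation, exons of *Bmp4*, *Bmpr1a* and *Id4* share bases with transcripts of the opposite strand. Whether the counting used strand is not given in the sources used here, so reads of these pairs cannot be told apart. The partner of *Bmp4*, *Gm15217*, was listed at 0.142 FPKM (CTL) and 0.0472 (*Stat3* cKO) at E11, and 0 and 0.0826 at E14. Positions are as listed in the files. The submitters' processing notes name mm8 and mm9 without saying which the positions use, so they are not to be read on GRCm38.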

How the data were processed

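Neural progenitors cultured for 3 days were sequenced on an Illumina HiSeq, with 1 library in each of 4 groups (E11 and E14, CTL and *Stat3* cKO). The authors checked reads with FastQC and processed them with TopHat and Cufflinks, and they deposited FPKM values. Bowtie 0.12.2 and the builds mm8 and mm9 are named in the submitters' processing notes. The number of fragments behind each value is not given, so no interval was computed. The 4 libraries summed to 948738, 806587, 1394045 and 1461770 FPKM (E11 before E14, CTL first).

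Plain ratios of the FPKM values were taken without a pseudocount. The 12449 of 21091 entries that averaged 1 FPKM or more were tested, and a gene was called at 2-fold. A gene at 0 in either library had no ratio and was not called, which left 12426 to 12430 genes with a ratio. The members and lists were chosen with earlier results of these data known. Genes named outside the members were those past 2-fold between genotypes, the highest of each list and the 3 nearest in course, and *Bmp3*, *Nog*, *Smad1*, *Smad5*, *Smad9*, *Acvr2a*, *Otx2*, *Lmx1a*, *Rspo2*, *Ttr*, *Wnt8b*, *Folr1*, *Inhbb*, *Fabp7*, *Pax6*, *Pdgfrb*, *Rspo3*, *Gm15217*, *Msi1* and the E protein genes were added after their values were seen. The steps were tested on simulated data. Python 3.11.15, numpy 2.4.6, pandas 2.3.3 and matplotlib 3.10.9 were used. RefSeq promoter windows were matched by symbol for 7 members and used as 9 windows.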

Additional observations from a re-analysis of the deposited data

Results flagged for a closer look

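With 1 library per group, the differences named here were not tested. For 7 of the 10 genes, the ratio of *Stat3* cKO to CTL lay on opposite sides of 1 at E11 and E14, as it did for 55.4% of 12419 genes. With the median of all genes at 0 or upper-quartile scaling, 4 of the 10 did (*Smad6*, *Smad7*, *Id1* and *Id4*), beside 52.7% and 53.4% of genes. The log2 ratio at E14 minus that at E11 was -1.57 for *Bmp7*, from 0.03 at E11 to -1.54 at E14. It was 0.75 for *Smad6* (from -0.03 to 0.72) and 0.73 for *Smad7* (from -0.19 to 0.54), both on levels under 2 FPKM at E14. For *Id1* it was -0.49, for *Id2* -0.30, for *Id4* 0.24 and for *Bmpr1a* -0.12, with ratios near 1 at both stages. Of all 12419 genes with both ratios, 6.59% had a difference of at least 1 in either direction, and the median over them was -0.12.

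For 2 genes, the ratio of E14 to E11 lay on opposite sides of 1 in the genotypes, as it did for 17.4% of all genes, and with upper-quartile scaling for none of the 10 (17.9%). The log2 ratio in *Stat3* cKO minus that in CTL was -1.57 for *Bmp7* (0.31 in CTL and -1.25 in *Stat3* cKO) and -0.30 for *Id2* (0.30 and -0.01). These are the same differences as those between stages, since they come from the same 4 values. With upper-quartile scaling the CTL ratios turned to -0.06 for *Bmp7* and -0.07 for *Id2*, and the difference of *Bmpr1a* between stages to 0.11.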

How the results depend on the processing

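The alternatives were pseudocounts of 0.1 and 1, setting the median of all genes to 0, upper-quartile scaling, a minimum mean of 5 FPKM or none, and thresholds of 1.5-fold and 3-fold. Upper-quartile scaling moved the median log2 ratio of all genes from 0.21 to -0.16 between stages in CTL and from 0.06 to -0.09 in *Stat3* cKO, and from -0.08 to 0.07 between genotypes at E14, and in CTL a minimum of 5 FPKM gave 0.32 and no minimum -0.06. Of 290 values of single genes under these alternatives, 273 kept their sign and their side of 2-fold and none past 2-fold changed sign. A minimum mean of 5 FPKM or none changes which genes are tested but not a gene's ratio. The values under those settings were therefore bound to stay the same, and the 273 include them. The exceptions that bear on a call were *Bmp4* between genotypes at E14 (0.69 with a pseudocount of 1, where its difference between stages was 0.54), *Bmpr1b* between stages in *Stat3* cKO (0.98 with a pseudocount of 1 and 0.95 with upper-quartile scaling), *Smad7* between stages in *Stat3* cKO (-1.03 with the median set to 0 and -1.12 with upper-quartile scaling) and *Id4* in CTL (-1.08 with upper-quartile scaling).

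The count of the 10 genes past 2-fold between genotypes at E14 was 1 with a pseudocount of 1 and 0 with a threshold of 3-fold, and between stages in CTL it was 3 with that threshold. A minimum mean of 5 FPKM left out *Smad6* and *Smad7*. Over the 8 genes left, the median log2 ratio was -0.01 between genotypes at E14, and between stages -0.36 in CTL and -0.86 in *Stat3* cKO. A pseudocount of 1 gave a median of -0.91 over the 10 genes between stages in *Stat3* cKO. In CTL the stage median of the 10 genes and that of the ID genes were both -1.15 when ratios were centred on the median of all genes and -1.30 with upper-quartile scaling. The ID median between genotypes at E14 was 0.07 and 0.14 under the same alternatives, so its sign depends on the scaling. In the wider pathway, genes past 2-fold between genotypes at E14 numbered 0 with a pseudocount of 1 or a threshold of 3-fold, 4 with upper-quartile scaling, 5 with no minimum and 8 with a threshold of 1.5-fold. At E11 they numbered 0 with a minimum of 5 FPKM and 7 with none. Between stages they numbered 9 in CTL and 7 in *Stat3* cKO with a minimum of 5 FPKM, and 32 in each with none, where fewer or more genes were tested. The cause of the other changes was not tested. No paired analysis was possible because each group has 1 library, and no replicate could be left out.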
